A study of Mus musculus with 5 samples.

Results

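The genes described here encode nuclear subunits of the mitochondrial respiratory chain and ATP synthase in mouse thymic cell suspensions. They were chosen by symbol in the deposited expression table: Nduf genes of the a, b, c, s and v series, Sdha to Sdhd, and symbols that begin with Uqcr, with Cox4 to Cox8 or with Atp5. The rule gave 73 genes among the 20371 named genes of the table. Where a gene had several probe sets, the one with the highest mean level of the 5 arrays stood for it. The 73 genes had 154 probe sets among the 45101 of the table. A gene was kept for counting if its mean log2 level was at or above 5.24, the median over all genes. Of the 73 genes, 71 were kept, and Cox4i2 and Cox7b lay below that limit.

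The series compared glucocorticoid exposure in the living animal with exposure of suspended cells, on Affymetrix arrays. Each of the 5 arrays measured RNA pooled from the thymic suspensions of 3 males of the outbred CD-1 stock at 4 to 6 weeks of age. One pool was untreated, 1 was taken 4 h after PBS had been injected into the peritoneum, and 1 was taken 4 h after injection of 0.2 mg dexamethasone per mouse. The remaining pools were kept in culture for 4 h, 1 with 0.1% ethanol and 1 with dexamethasone, at a concentration written in the labels as 10e-7 M. No genotype was given for any group. Dexamethasone is a synthetic glucocorticoid, and PBS and ethanol are the vehicles. Each group had 1 array, so a difference between a pair of arrays lacks a replicate check and its precision is limited by the number of arrays.

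The respiratory chain passes electrons from NADH at complex I and from succinate at complex II through ubiquinone to complex III, and from there through cytochrome c to complex IV, which reduces oxygen. Complexes I, III and IV pump protons, and ATP synthase, here called complex V, uses the proton gradient to make ATP. Most subunits are encoded in the nucleus, and several complex IV subunits exist as a common isoform and as an isoform of particular tissues.

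Values are deposited log2 levels, and a difference is 1 log2 level minus another. The median level over all probe sets of an array lay between 4.23 and 4.37, and the lower quartile of all values was 2.97. The arrays carried markers of the labelled tissue: the 11 thymocyte markers measured had levels between 5.67, for Ptcra, and 12.6, for Lck. With dexamethasone these markers were lower: all 11 lay below PBS in vivo, with a median of -0.58, and 10 lay below ethanol in culture, with a median of -0.33. In limma, 5 of the 11 fell. The part of this shift in the subunit values was not tested. Markers of other cell types were also measured. The 9 adipocyte markers summed to between 67.8 and 74.8 on the untreated and the 2 in vivo arrays, and to 31.0 and 31.6 on the culture arrays. The 10 thymic epithelial markers summed to between 92.3 and 94.1 on the former and to 42.7 and 44.5 on the latter. On a pooled suspension, fewer cells of a type and less RNA per cell cannot be told apart.

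The subunit genes stayed close to their own level on all arrays, with exceptions in complex IV. The gap between the highest and the lowest of the 5 arrays had a median of 0.34 over the 71 kept subunit genes, against 0.61 over all 10186 kept genes. It was 0.52 over the genes in the upper quartile of level. The gap was under 1, a 2-fold range, in 69 of the 71, or 97.2%, against 76.2% of all kept genes. It was under 1 in 84.2% of the genes in the upper quartile of level, which held 65 of the 73 subunit genes. Both exceptions were tissue isoforms of complex IV, Cox8b with a gap of 4.00 and Cox7a1 with a gap of 2.09. Among the 66 kept genes that are not tissue isoforms, the median gap was 0.30 and the widest, that of Ndufb2, was 0.80. The narrowest gap of any kept subunit gene was 0.07, for Cox7c, a single-isoform subunit of complex IV. That gap holds for the probe set used. Another Cox7c probe set above the limit had 7.36 untreated and 6.54 in ethanol culture. Its ethanol culture minus untreated was -0.83, against -0.05 for the one used.

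The median difference over the subunit genes was small in each comparison. In vivo, dexamethasone minus PBS gave a median of -0.02, against -0.07 over all kept genes. In culture, dexamethasone minus ethanol gave a median of 0.12, against 0.03. PBS minus untreated gave 0.07 against -0.01, and ethanol culture minus untreated gave -0.11 against 0.01. These comparisons share arrays: PBS enters both comparisons of animals, ethanol both of cultures, and the untreated array enters a comparison of each kind.

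Counts at 1.2-fold are given beside the share of all kept genes. Among the 5093 genes in the upper quartile of level, those higher and lower numbered 784 and 1222 in vivo and 698 and 644 in culture. They numbered 433 and 669 for PBS and 1275 and 1147 for ethanol culture, each minus untreated. In vivo, 3 of the 71 were at least 1.2-fold higher with dexamethasone, where 17% of all kept genes were, and 9 were at least 1.2-fold lower, where 27.8% of all kept genes were. In culture, 5 were higher, against a background of 17.3%, and 1 was lower, against 14%. The lower one was Cox6a2, whose levels on both culture arrays lay under the limit for counting. Between PBS and untreated, 7 were higher, or 9.86%, near the background of 12.3%, and 3 were lower, against 16.4%. The 7 became 13 when arrays were centred on their median, for which the share of all kept genes was not taken. Between ethanol culture and untreated, 3 were higher, against 27.2%, and 16 were lower, against 26.5%, so the share lower, 22.5%, was near the background. Of the 71 genes, 38, or 53.5%, stayed under 1.2-fold in all 4 comparisons, against 21.3% of all kept genes. Likewise 69 stayed under 2-fold in all 4, or 97.2%, against 85.3% of all kept genes.

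Direction differed between the comparisons. In culture, 59 of the 71 lay above 0 with dexamethasone, where 55.8% of all kept genes did, and 11 lay below 0, against 41.2%. In vivo, 29 lay above 0, against 39%, and 40 lay below, against 58.3%, which is close to the background in both directions. PBS lay above untreated in 56, against 44.9%, and below in 12, against 51.3%. Ethanol culture lay above untreated in 19, against 50.8%, and below in 51, against 46.2%.

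**Figure D1:**
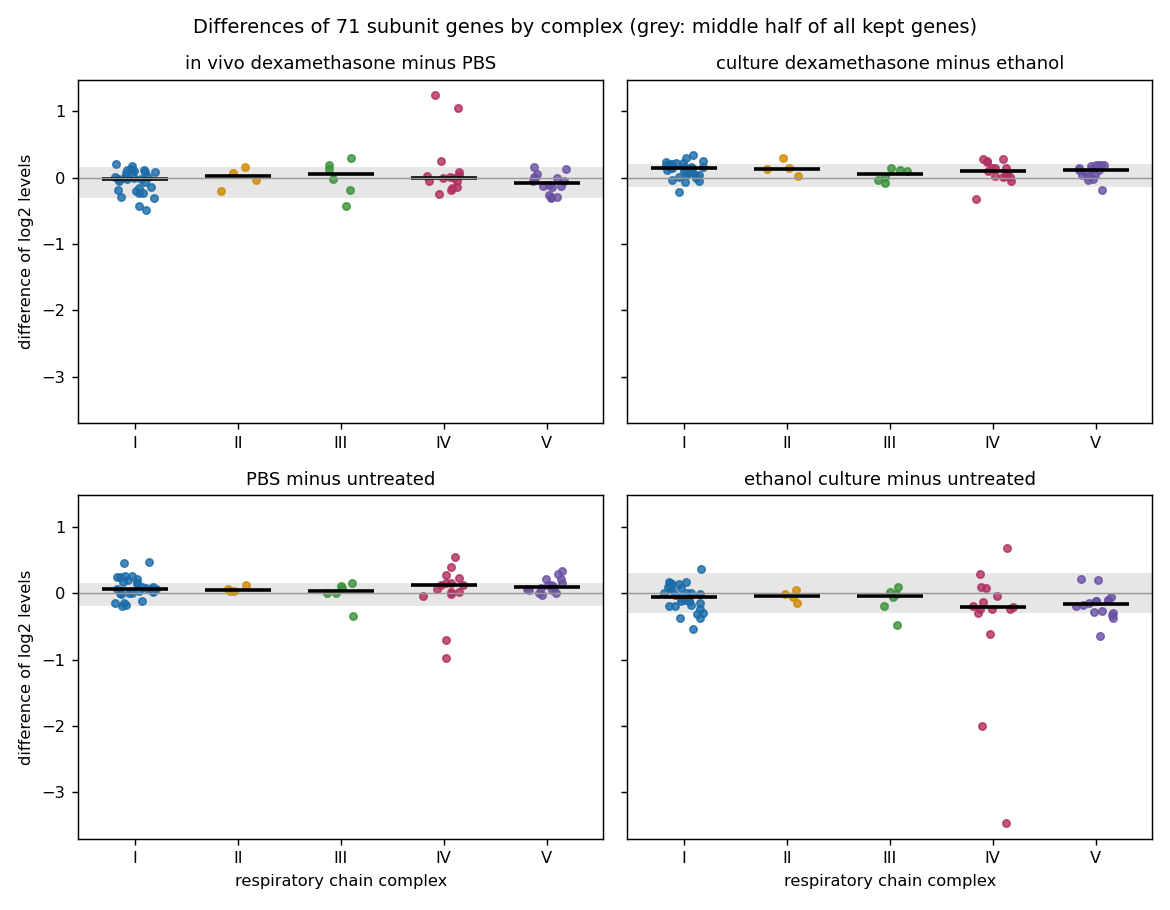
Difference of log2 levels (vertical axis) of each of the 71 kept subunit genes, by complex I to V (horizontal axis), in the 4 comparisons. Each point is 1 gene, black bars are medians by complex, and the grey band spans the lower to the upper quartile of all kept genes. Most points lie within or near the band; Cox8b and Cox7a1, in complex IV, lie above it in vivo and below it in both comparisons with untreated.

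Genes were placed in complexes I to V by the start of their symbol alone. No complex stood far from the others in its median. In vivo, the medians were -0.01 for the 30 kept genes of complex I, 0.02 for the 4 of complex II, 0.05 for the 6 of complex III, -0.004 for the 15 of complex IV and -0.08 for the 16 of complex V. The median of complex III turned to -0.053 with updated symbols and to -0.016 with the median of all probe sets. In culture the medians of complexes I to V were 0.14, 0.14, 0.06, 0.10 and 0.11. All 5 culture medians were above 0. With untreated as the reference, those of complexes III, IV and V were -0.018, -0.10 and -0.055. In ethanol culture minus untreated, the medians were -0.05, -0.04, -0.04, -0.20 and -0.16. The medians of complexes IV and V were the lowest there, and 14 of the 16 genes of complex V lay below 0, where 46.2% of all kept genes did. For PBS minus untreated they were 0.07, 0.05, 0.04, 0.12 and 0.10.

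A feature that the choice by symbol did not use is the sequence just upstream of the gene start. RefSeq windows of assembly GRCm38.p6 were found for 60 of the 73 genes, and 57 of these are not tissue isoforms. The windows span 250 bases before the start. The letters GCGCA, then any base, then GCGC form the core of the binding motif of NRF1, a transcription factor known for nuclear genes of the respiratory chain. They were searched on both strands, with hits of both strands at the same place counted once. They were present in 11 of the 57 windows, or 19.3%, against 927 of the 17486 windows of all protein-coding genes in that table, or 5.30%. The counts by complex are over all 60 windows, 3 of them of tissue isoforms, which had 0 matches. Matches were in 5 of 26 windows of complex I, 2 of 3 of complex II and 0 of 4 of complex III. Complex IV had 1 of 12 and complex V had 3 of 15. The median ratio of observed to expected CG dinucleotides was 0.78 over the 57 windows and 0.536 over all windows. The NRF1 letters themselves contain CG, and windows of like CG ratio were not compared. The part of the CG ratio in the share with NRF1 letters was not tested. A match of letters is a description of the window and not a measured binding site. The hexamer TGTTCT, which is a glucocorticoid receptor half-site, was present in 5 of the 57 windows, or 8.77%, against 13.9% of all windows. A further 6 motifs were searched on both strands. The ETS letters CCGGAAGT were in 5.26% against 3.84%, the GC box GGGCGG in 33.3% against 42.7%, the E-box CANNTG in 64.9% against 62.7% and the TATA box TATAAA in 8.77% against 12.4%. The MEF2 motif, CTA and TAG with 4 bases of any kind between them, was in 1.75% against 3.05%, and the ERR motif TCAAGGTCA in 1.75% against 0.315%, or 1 window each.

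A pair of windows with more than 1 match is shown, read 5' to 3' on the gene's strand, with the matched letters in capitals. The window of Sdha lies at chr13:74350241-74350490 on the minus strand, and its 3 matches begin at positions -98, -55 and -10 from the start. The window of Cox6a1 lies at chr5:115348959-115349208 on the minus strand, and its 2 matches begin at positions -162 and -117 from the start.
Sdha: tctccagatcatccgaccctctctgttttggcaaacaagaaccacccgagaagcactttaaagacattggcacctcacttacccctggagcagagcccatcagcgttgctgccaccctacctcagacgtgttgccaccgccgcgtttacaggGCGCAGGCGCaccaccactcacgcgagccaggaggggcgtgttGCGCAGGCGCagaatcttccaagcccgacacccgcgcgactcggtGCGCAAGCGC
Cox6a1: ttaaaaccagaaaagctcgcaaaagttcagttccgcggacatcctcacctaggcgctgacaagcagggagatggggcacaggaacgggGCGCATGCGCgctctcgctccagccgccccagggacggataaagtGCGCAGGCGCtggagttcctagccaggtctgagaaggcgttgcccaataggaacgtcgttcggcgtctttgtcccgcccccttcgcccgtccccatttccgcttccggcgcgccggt

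Complex I is the entry point for electrons from NADH, with 7 core subunits encoded in the nucleus and measured here. Ndufv1, which carries the NADH-binding site, had levels of 9.61 untreated, 9.47 after PBS, 9.69 after dexamethasone in vivo, 9.76 in ethanol culture and 9.92 in dexamethasone culture. It was 0.21 higher with dexamethasone in vivo and 0.16 higher in culture. Ndufs1, the largest iron-sulphur subunit, had 9.83, 9.65 and 9.66 on the untreated, PBS and dexamethasone arrays, and 9.998 and 9.78 in ethanol and dexamethasone culture. Its difference was 0.01 in vivo and -0.22 in culture, the lowest of the complex in culture. Its other probe set above the limit gave -0.002 in vivo and -0.0015 in culture.

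Ndufs8, a core subunit that carries iron-sulphur clusters, was the lowest subunit gene in vivo. Its levels were 10.78 untreated, 11.25 after PBS, 10.76 after dexamethasone in vivo, 10.63 in ethanol culture and 10.74 in dexamethasone culture. The PBS array was the high one, and the other 4 lay between 10.63 and 10.78. Dexamethasone minus PBS was -0.49, or 1.41-fold lower, while dexamethasone in vivo minus untreated was -0.03. The 6 probe sets of Ndufs8 all lay below 0 in vivo, from -0.49 to -0.18.

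Of the accessory subunits of complex I, Ndufa3, Ndufb7 and Ndufa7 were also highest on the PBS array among those from animals. They are named for their low dexamethasone minus PBS, which favours a high PBS value. Other accessory subunits, such as Ndufs4 and Ndufs5, were not highest there. Ndufa3 had 10.70 untreated, 10.96 after PBS and 10.53 after dexamethasone, and 10.46 and 10.65 in ethanol and dexamethasone culture. Ndufb7 had 10.35, 10.59 and 10.28 on the arrays from animals, and 10.28 and 10.24 in culture. Ndufa7 had 9.83, 10.29 and 9.99, and 9.83 and 9.99 in culture. The dexamethasone array was the lowest of the 3 for Ndufa3 and Ndufb7, and the untreated array for Ndufa7. Dexamethasone minus PBS was -0.43 for Ndufa3, -0.31 for Ndufb7 and -0.29 for Ndufa7. The values of Ndufs8, Ndufa3 and Ndufa7 are taken from probe sets with suffix _x_at, which can share probes with other sequences. Without such probe sets they were -0.24, -0.30 and 0.0075, so that Ndufs8 was then not the lowest subunit gene. The 5 probe sets of Ndufa7 ranged from -0.29 to 0.02.

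In culture, the highest complex I genes were accessory subunits of the membrane arm. Ndufb5 had 10.13 untreated, 10.19 after PBS and 10.28 after dexamethasone in vivo, against 10.02 in ethanol culture and 10.36 in dexamethasone culture. It was 0.35 higher with dexamethasone in culture, 1.27-fold, and 0.09 higher in vivo. Ndufb8 had 9.91, 10.07 and 10.14 on the arrays from animals, and 9.91 and 10.21 in culture. It was 0.29 higher in culture and 0.08 higher in vivo. Against untreated, ethanol culture was highest within the complex for Ndufs4, by 0.36, and lowest for Ndufb2, by -0.53. Ndufa5, a subunit of the peripheral arm, was the lowest of the complex I accessory genes between PBS and untreated, at -0.18.

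Complex II oxidises succinate and is encoded in the nucleus alone. Sdha, the flavoprotein, had levels of 9.87 untreated, 9.90 after PBS, 9.98 after dexamethasone in vivo, 9.93 in ethanol culture and 10.07 in dexamethasone culture. Sdhb, the iron-sulphur subunit, had 10.40, 10.47 and 10.27 on the arrays from animals and 10.26 and 10.27 in culture. Sdhc, a membrane anchor, had 8.80, 8.92 and 9.09, and 8.79 and 9.08 in culture. Sdhc lay above its vehicle in both settings, by 0.17 in vivo and 0.29 in culture, among the 5 highest differences of all subunit genes in culture. Sdhb lay 0.20 below its vehicle in vivo and 0.02 above it in culture. The gap over 5 arrays was at most 0.30 in the complex.

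Complex III passes electrons from ubiquinol to cytochrome c. Uqcrfs1, the Rieske iron-sulphur protein, had 10.14 untreated, 10.21 after PBS, 10.03 after dexamethasone in vivo, 10.23 in ethanol culture and 10.14 in dexamethasone culture. It lay below its vehicle in both settings, by -0.18 and -0.08. Uqcrc1, a core protein, had levels between 9.77 and 9.90, a gap of 0.13.

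Uqcrc2, the other core protein, and Uqcrb, a small accessory subunit, lay at opposite ends of complex III in vivo. Uqcrc2 had 10.48 untreated, 10.14 after PBS, 10.44 after dexamethasone in vivo, 10.43 in ethanol culture and 10.44 in dexamethasone culture. The PBS array was the low one, and the other 4 lay between 10.43 and 10.48. Dexamethasone minus PBS was 0.30, while its other probe set gave -0.01. Uqcrb had 12.25, 12.40 and 11.97 on the arrays from animals and 12.06 and 12.03 in culture. Dexamethasone minus PBS was -0.42, while its other probe set gave 0.07. The direction of both genes in vivo thus differed between probe sets.

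Complex IV, cytochrome c oxidase, reduces oxygen. Cox4i1, the common isoform of its subunit 4, had 11.63 untreated, 11.75 after PBS, 11.69 after dexamethasone in vivo, 11.70 in ethanol culture and 11.80 in dexamethasone culture. Cox5b had levels between 11.29 in ethanol culture and 11.69 after PBS. Cox5a had 11.28, 11.30 and 11.32 on the arrays from animals, and 10.67 and 10.93 in ethanol and dexamethasone culture. Both culture arrays of Cox5a lay below all 3 arrays from animals. Ethanol culture minus untreated was -0.61 for Cox5a, 1.53-fold lower, and its 3 probe sets lay between -0.61 and -0.49. Dexamethasone minus ethanol in culture was 0.26, while the 3 probe sets ranged from -0.09 to 0.26, so their direction differed. Cox7a2l, a factor of respiratory supercomplexes, had 10.57 untreated and between 10.79 and 10.93 on the other 4 arrays.

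The widest differences of all subunit genes were those of a pair of tissue isoforms. Cox8b and Cox7a1 are the isoforms of subunits 8 and 7a known from striated muscle and brown fat, and their common counterparts are Cox8a and Cox7a2. Cox8b had 7.89 untreated, 7.18 after PBS, 8.42 after dexamethasone in vivo, 4.42 in ethanol culture and 4.44 in dexamethasone culture. Cox7a1 had 6.46 untreated, 5.49 after PBS, 6.55 after dexamethasone in vivo, 4.45 in ethanol culture and 4.73 in dexamethasone culture. For both genes the dexamethasone array was the highest and PBS the lowest of the 3 arrays from animals, and both culture arrays lay lower still, near the median of all probe sets.

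Dexamethasone minus PBS in vivo was 1.24 for Cox8b, 2.36-fold higher, and 1.05 for Cox7a1, 2.08-fold higher. These were the only 2 of the 71 kept subunit genes at least 2-fold higher in vivo, where 2.72% of all kept genes were, and 0 were at least 2-fold lower, against 1.47%. The authors' deposited table of the in vivo comparison held 1260 probe sets, with a lowest absolute difference of 1.00. The same 2 were its only subunit genes by this rule, with 1.24 and 1.05. That table holds the same differences cut at about 2-fold, so this overlap follows from the count above and is no separate support. In culture, dexamethasone minus ethanol was 0.02 for Cox8b and 0.28 for Cox7a1. No subunit gene was 2-fold higher or lower there (0 each, against 1.51% and 0.893%). Against untreated, dexamethasone in vivo was 0.53 higher for Cox8b and 0.09 higher for Cox7a1, while PBS minus untreated was -0.71 and -0.97. Between PBS and untreated, 0 subunit genes were at least 2-fold higher, against 0.177%, and 0 lower, against 0.412%. Ethanol culture minus untreated was -3.47 for Cox8b and -2.01 for Cox7a1. The culture levels of both lie under the limit for counting, with signal over background unknown, so the size of these differences is uncertain. Both genes were kept through the arrays from animals. These were the 2 subunit genes at least 2-fold lower there, against 7.99% of all kept genes, and 0 were at least 2-fold higher, against 3.12%. Both genes had a single probe set.

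The common counterparts stayed closer to their own level. Cox8a had 10.07 untreated, 10.34 after PBS, 10.18 after dexamethasone in vivo, 9.83 in ethanol culture and 9.97 in dexamethasone culture. Cox7a2 had 11.81, 11.97 and 11.72 on the arrays from animals, and 11.68 and 11.63 in culture. Their gaps over the 5 arrays were 0.51 and 0.34. In vivo, dexamethasone minus PBS was -0.16 for Cox8a and -0.25 for Cox7a2.

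**Figure D2:**
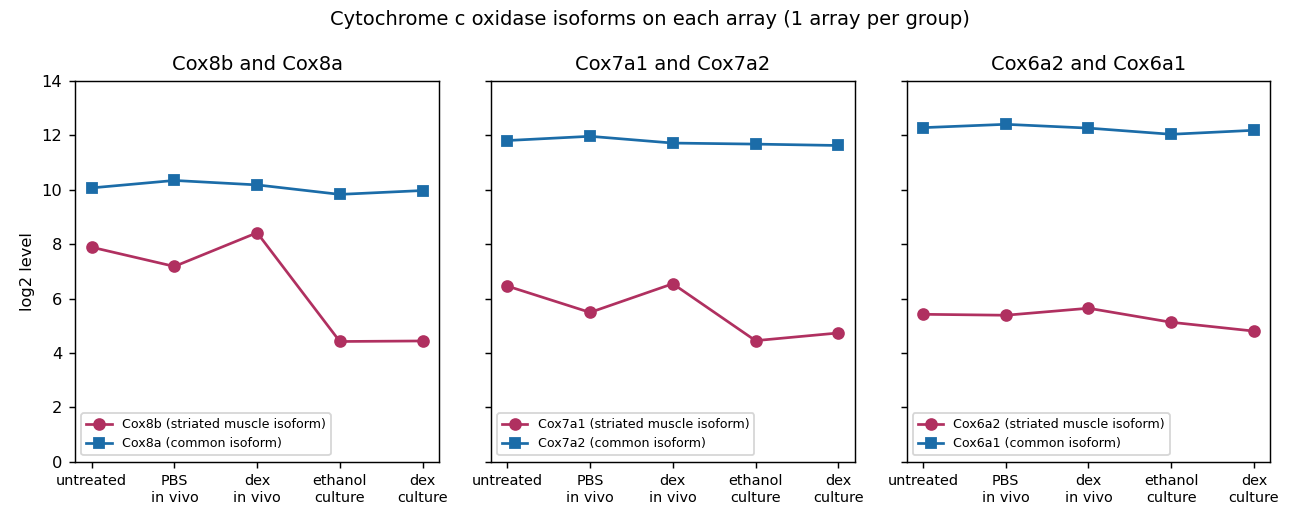
Log2 level (vertical axis) of 3 tissue isoforms and their common counterparts on each of the 5 arrays (horizontal axis, 1 array per group, lines join arrays of a gene for reading only). Cox8b and Cox7a1 range over 4.00 and 2.09, and the common isoforms stay nearly flat; heights of different genes are not comparable.

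The windows upstream of these 4 genes are shown because the isoforms of each pair differ in them, with CG dinucleotides in capitals. Each holds 250 bases before the start in GRCm38.p6, read 5' to 3' on the gene's strand. Cox8b lies at chr7:140900447-140900696 on the minus strand, with 1 CG and a ratio of observed to expected of 0.0726. Cox8a lies at chr19:7217617-7217866 on the minus strand, with 11 CG and a ratio of 0.676. Cox7a1 lies at chr7:30183921-30184170 on the plus strand, with 4 CG and a ratio of 0.244. Cox7a2 lies at chr9:79759854-79760103 on the minus strand, with 14 CG and a ratio of 0.751.
Cox8b: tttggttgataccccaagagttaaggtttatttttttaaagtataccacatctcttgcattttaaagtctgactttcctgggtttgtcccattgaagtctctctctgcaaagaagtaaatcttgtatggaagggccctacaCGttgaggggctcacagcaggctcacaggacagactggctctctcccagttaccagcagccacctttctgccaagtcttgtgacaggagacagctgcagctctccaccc
Cox8a: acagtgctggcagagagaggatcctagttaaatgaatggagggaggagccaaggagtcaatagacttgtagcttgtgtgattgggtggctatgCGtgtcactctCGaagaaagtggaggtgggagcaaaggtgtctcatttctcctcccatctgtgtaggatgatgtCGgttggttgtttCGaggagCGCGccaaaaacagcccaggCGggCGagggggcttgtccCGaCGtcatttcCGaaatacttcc
Cox7a1: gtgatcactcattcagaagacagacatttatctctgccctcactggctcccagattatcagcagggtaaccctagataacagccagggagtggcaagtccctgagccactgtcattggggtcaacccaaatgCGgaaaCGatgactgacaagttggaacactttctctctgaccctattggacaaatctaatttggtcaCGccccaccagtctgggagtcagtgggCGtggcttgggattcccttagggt
Cox7a2: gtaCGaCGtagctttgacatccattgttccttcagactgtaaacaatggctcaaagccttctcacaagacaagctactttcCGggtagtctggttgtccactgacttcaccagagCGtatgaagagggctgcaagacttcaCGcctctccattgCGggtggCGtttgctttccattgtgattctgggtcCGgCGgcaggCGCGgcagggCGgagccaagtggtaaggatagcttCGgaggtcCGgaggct

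The remaining tissue isoforms of complex IV moved less. Cox6a2, the striated muscle isoform of subunit 6a, had 5.42 untreated, 5.39 after PBS, 5.64 after dexamethasone in vivo, 5.13 in ethanol culture and 4.80 in dexamethasone culture. It was 0.26 higher than PBS in vivo and lay at -0.32 from ethanol in culture, the lowest subunit gene there. Both culture levels lie under the limit for counting, so the size of the culture difference is uncertain. Another Cox6a2 probe set lay between 2.67 and 2.70 on all arrays and gave 0 in culture. The common counterpart Cox6a1 had levels between 12.04 and 12.41. Cox6b2, known from testis, had 6.06 untreated and between 6.60 and 6.74 on the other 4 arrays, so the untreated array was the low one. Its difference from untreated was 0.54 after PBS and 0.68 in ethanol culture, and with dexamethasone it was 0.04 in vivo and 0.01 in culture. The common counterpart Cox6b1 had levels between 11.37 and 11.63. Cox8c, also known from testis, was lowest untreated, at 5.64, and highest after dexamethasone in vivo, at 6.13, and it was 0.28 higher with dexamethasone in culture. Cox4i2, known from lung, had levels between 3.74 and 4.01, under the limit for counting. Cox7b, a single-isoform subunit in this grouping, lay between 3.48 and 3.81, and whether its probe set reports the gene is uncertain.

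Several markers of fat cells moved with Cox8b and Cox7a1 from array to array. All 6 kept adipocyte markers of 9 measured lay above PBS with dexamethasone in vivo, with a median difference of 0.75. Fabp4, a fatty acid carrier of adipocytes, had 10.58 untreated, 10.22 after PBS, 11.27 after dexamethasone in vivo, 2.75 in ethanol culture and 2.66 in dexamethasone culture. In culture these 6 had levels between 2.33 and 4.87, under the limit for counting, so they were kept through the arrays from animals. Plin1 of the adipocyte list lay between 3.37 and 3.52 on all arrays. Among the 5 brown adipocyte markers, Ucp1, the uncoupling protein of brown fat, had 8.80, 7.85 and 8.46 on the arrays from animals, and 4.01 on each culture array. Cidea, a lipid droplet protein, had 7.54, 6.82 and 7.84, and 2.95 and 3.38 in culture. Elovl3, Dio2 and Ppargc1a of that list had levels between 2.36 and 4.99. Summed over the 5 brown adipocyte markers, the level was 26.1 untreated, 24.5 after PBS, 26.6 after dexamethasone in vivo, and 17.4 and 17.7 in culture. In the limma fit, 0 of the 6 adipocyte and 0 of the 2 kept brown adipocyte markers rose or fell, with 2 and 1 at an unadjusted p of 0.05. Markers of other cell types had part of this pattern. Of 9 macrophage markers, 8 lay above PBS with dexamethasone in vivo, with a median of 0.39, and all 9 were at least 2-fold lower in ethanol culture than untreated. All 6 kept stromal fibroblast markers and all 9 kept thymic epithelial markers were also at least 2-fold lower there, against 7.99% of all kept genes. In ethanol culture the macrophage, stromal and epithelial markers lay under the limit for counting, except Lyz2, Csf1r and Epcam. Those under it were kept through other arrays, which favours a fall in these counts.

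Striated muscle markers varied in level. Of 12 measured, 2 were kept, and the summed level was 63.1 untreated, 56.4 after PBS, 61.8 after dexamethasone in vivo and 49.9 on each culture array. Actc1, cardiac actin, had 7.22, 4.59 and 6.97 on the arrays from animals, and 3.30 and 3.55 in culture. Mb, myoglobin, had 6.83, 4.33 and 5.91, and 4.23 and 4.12 in culture. Actc1 and Mb lay under the limit for counting by their mean level. The 2 kept markers, Acta1 and Mylpf, lay below PBS with dexamethasone in vivo, by -0.30 and -0.09. Acta1 had 6.68, 6.34 and 6.04 on the arrays from animals, and 4.95 and 4.51 in culture. Mylpf had 6.72, 6.95 and 6.86, and 7.21 and 6.95 in culture. Myh4, a fast myosin chain, lay between 2.41 and 2.49 on all arrays. The part of fat, muscle or other cells in the values of Cox8b and Cox7a1 was not tested.

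**Figure D3:**
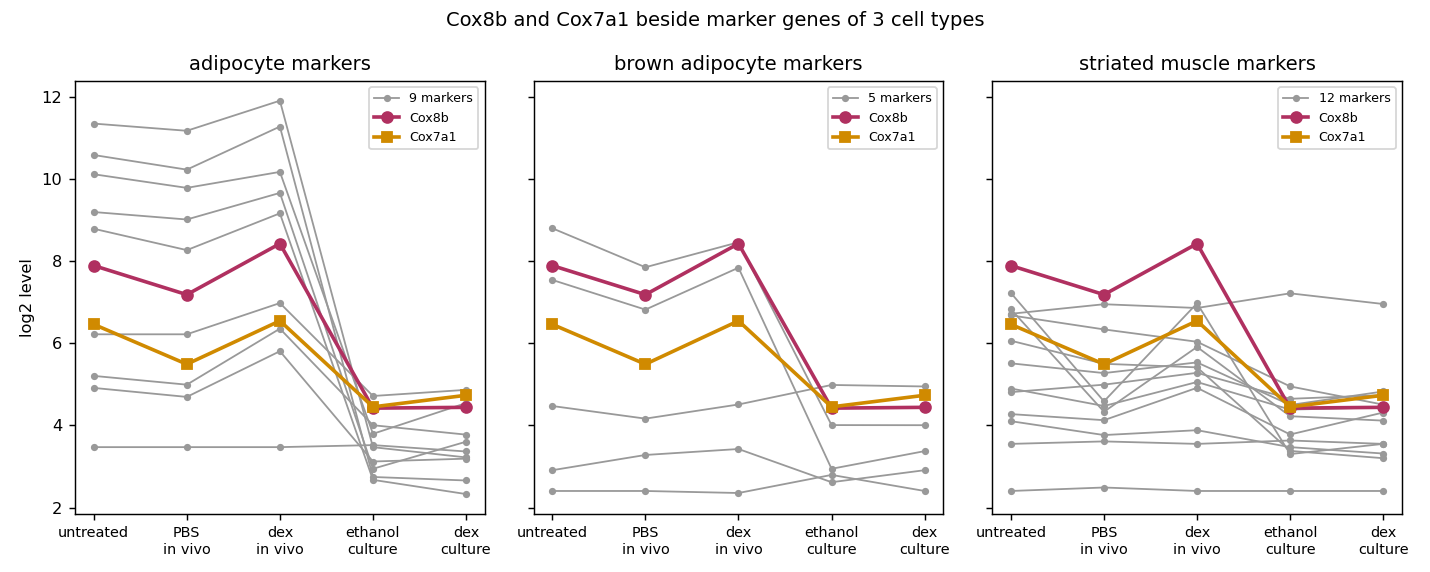
Log2 level (vertical axis) of Cox8b and Cox7a1 in colour and of the 9 adipocyte, 5 brown adipocyte and 12 striated muscle markers in grey, on each of the 5 arrays (horizontal axis, 1 array per group). Cox8b and Cox7a1 dip after PBS, are highest after dexamethasone in vivo and are low in both cultures, as are the Ucp1 and Cidea lines except that Ucp1 is highest untreated.

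Complex V makes ATP. Atp5a1 and Atp5b are the subunits that form its catalytic head, and their gaps over the 5 arrays were 0.12 and 0.36. Atp5a1 had 11.64 untreated, 11.65 after PBS, 11.71 after dexamethasone in vivo, 11.59 in ethanol culture and 11.62 in dexamethasone culture. Atp5b had 11.76, 11.83 and 11.73 on the arrays from animals, and 11.48 and 11.50 in culture. Both culture arrays of Atp5b lay below the 3 others, and ethanol culture minus untreated was -0.28. Atp5d, the delta subunit of the central stalk, had 10.96, 11.25 and 10.95 on the arrays from animals and 10.86 and 10.98 in culture. Dexamethasone minus PBS was -0.30 for Atp5d, and PBS minus untreated was 0.29, so here too PBS was the high array.

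Atp5g1, Atp5g2 and Atp5g3 encode the same mature c subunit of the membrane ring from separate genes, and their values differed. Atp5g1 had 9.15 untreated, 9.28 after PBS, 8.99 after dexamethasone in vivo, 8.51 in ethanol culture and 8.70 in dexamethasone culture. Atp5g2 had 10.19 untreated and between 10.40 and 10.54 on the other 4 arrays. Atp5g3 had 11.76, 11.82 and 11.55 on the arrays from animals, and 11.58 and 11.56 in culture. Ethanol culture minus untreated was -0.64 for Atp5g1, 0.21 for Atp5g2 and -0.18 for Atp5g3. Dexamethasone minus PBS in vivo was -0.30, 0.00 and -0.27 in the same order. Atp5s, counted here by its symbol and now named Dmac2l, had 5.84 untreated, 6.18 after PBS, 5.88 after dexamethasone in vivo, 6.06 in ethanol culture and 5.87 in dexamethasone culture. It lay below its vehicle in both settings, by -0.30 and -0.19.

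The PBS array bears on several in vivo values. The 9 genes at least 1.2-fold lower with dexamethasone than PBS were Ndufs8, Ndufa3, Ndufb7, Ndufa7, Uqcrb, Atp5d, Atp5g1, Atp5g3 and Atp5s. In each of them PBS lay above untreated, from 0.06 for Atp5g3 to 0.47 for Ndufs8. With untreated as the reference, 2 subunit genes were at least 1.2-fold lower after dexamethasone in vivo, Ndufs5 and Uqcrb, and 5 were higher. The 5 were Ndufs4, Sdhc and the tissue isoforms Cox8b, Cox6b2 and Cox8c. The share of all kept genes with that reference was not taken, so these counts have no background. The PBS array enters both comparisons, so these values are not independent. The PBS pool also differed from untreated in cell type markers: all 7 granulocyte markers were at least 1.2-fold higher, with a median of 0.81, and both kept erythroid markers lay below untreated by at least 1.2-fold (median -0.88). Their part in the subunit values was not tested.

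Both settings of dexamethasone share no array. Of the 71 genes, 26 lay above the vehicle in both settings, where 25.2% of all kept genes did, and 8 lay below in both, against 27.4%. A further 31 lay below in vivo and above in culture, against 28.8%, and 3 lay above in vivo and below in culture, against 12.9%. Across the 71 genes, which are not independent, both responses had a Pearson r of 0.112 and a Spearman rho of 0.193, given as a description. Without the tissue isoforms they were 0.223 and 0.230 over 66 genes, and over all kept genes they were 0.437 and 0.273.

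**Figure D4:**
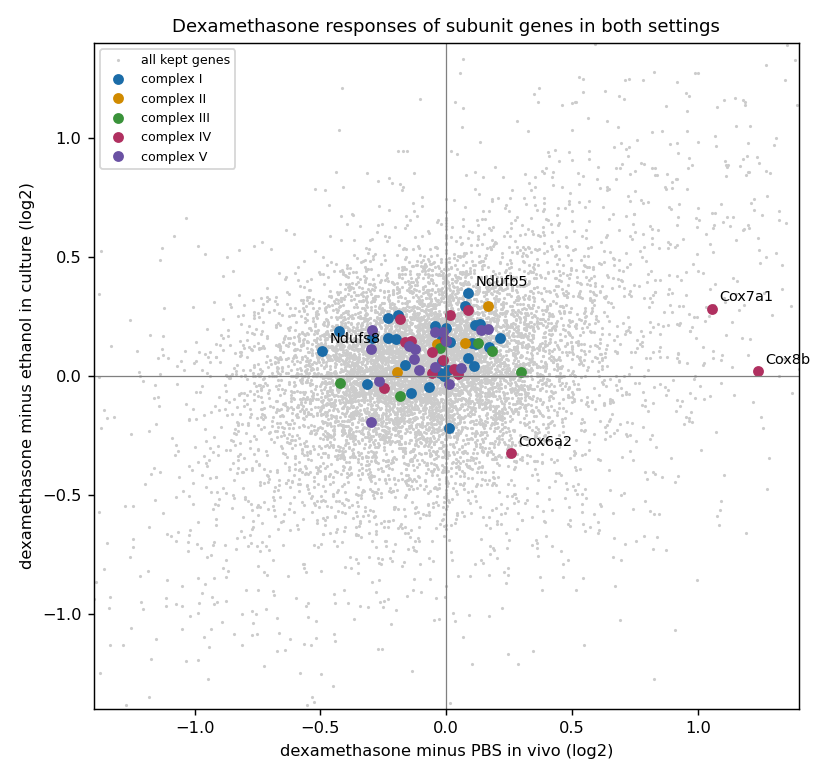
Dexamethasone minus PBS in vivo (horizontal axis) against dexamethasone minus ethanol in culture (vertical axis), both as log2 differences, for the 71 kept subunit genes coloured by complex and all kept genes in grey. The axes stop at 1.4 on either side and leave out 233 of the grey points. The subunit genes form a compact group mostly above 0 in culture, with Cox8b and Cox7a1 to the right.

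A shared dexamethasone difference was tested in limma over the 4 arrays with a vehicle or dexamethasone, with the setting as a term and Benjamini-Hochberg adjustment over all 10186 kept genes. Of all kept genes, 2.11% rose and 1.25% fell at an adjusted p of 0.05, together 3.36%. Of the 71 subunit genes, 0 rose and 0 fell. At an unadjusted p of 0.05, 1 of the 71 passed, against 12.5% of all kept genes. That gene was Cox7a1, with a mean difference of 0.67 (SE 0.27), an unadjusted p of 0.0341 in limma and an adjusted p of 0.329. Cox8b had a mean difference of 0.63 (SE 0.29) and an adjusted p of 0.439 in limma. Uqcrb had a mean difference of -0.23 (SE 0.11) and an adjusted p of 0.464 in limma. The fit has 1 residual degree of freedom, the gap between the 2 responses, so its p-values carry no information on how pools of the same group vary. On simulated data the fit called 43 of 9986 genes that had no difference, beside 86 of 100 with size 1 and 100 of 100 with size 2. The shares of all kept genes that rose or fell can thus include false calls.

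Other nuclear genes of mitochondria were compared through lists. In vivo, the 36 kept assembly factors of the respiratory chain had a median of -0.23, and 30 of them lay below 0, where 58.3% of all kept genes did. The 75 kept mitochondrial ribosomal proteins, which translate the subunits encoded in mitochondrial DNA, had a median of -0.20, and 65 lay below 0, against the same 58.3%. At least 1.2-fold lower were 17 of the assembly factors and 28 of the ribosomal proteins, against 27.8% of all kept genes. Both medians lay below the -0.02 of the subunit genes. In culture the medians were 0.11 and 0.13, close to the 0.12 of the subunit genes.

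The listed assembly factors of complex I lay below PBS in vivo, except Ndufaf7 and Foxred1. Ndufaf4 had 8.64 untreated, 8.25 after PBS, 7.54 after dexamethasone in vivo, 7.27 in ethanol culture and 7.03 in dexamethasone culture. Ndufaf3 had 8.14, 8.44 and 7.81 on the arrays from animals, and 8.36 and 8.23 in culture. Dexamethasone minus PBS was -0.70 for Ndufaf4 and -0.63 for Ndufaf3, while Ndufaf7 and Foxred1 lay above PBS, by 0.18 and 0.16. The highest of the 36 was Tmem70, at 0.27. It was the only 1 at least 1.2-fold higher, where 17% of all kept genes were. Among ribosomal proteins, Mrps18b of the small subunit was lowest in vivo, at -0.87, with 0.17 in culture.

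Carriers, citric acid cycle genes and regulators were listed too. The 18 kept electron and nucleotide carriers had medians of -0.01 in vivo and 0.20 in culture. Cycs, cytochrome c, had 11.01 untreated, 10.95 after PBS, 10.52 after dexamethasone in vivo, 9.90 in ethanol culture and 9.80 in dexamethasone culture. Its levels in both cultures lay below those of all 3 arrays from animals, and ethanol culture minus untreated was -1.11. The 14 citric acid cycle genes had medians of 0.07 in vivo and 0.08 in culture. The 17 kept regulators of mitochondrial biogenesis had -0.04 and 0.03, and 2 of them lay at least 2-fold below PBS in vivo, where 1.47% of all kept genes did. These were Myc, at -1.17, and Pprc1, a coactivator of the PGC-1 family, at -1.16. In ethanol culture minus untreated the same 2 genes were at -1.60 and -2.04.

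In the limma fit, 0 genes rose and 0 fell in each of these 5 lists. At an unadjusted p of 0.05, 1 assembly factor, 1 ribosomal protein, 3 carriers, 1 citric acid cycle gene and 2 regulators passed, where 12.5% of all kept genes did. The 4 further genes listed outside the symbol rule were Ndufab1, Cyc1, Atpif1 and Usmg5. They had medians of -0.18 in vivo and 0.01 in culture, with 0 that rose, 0 that fell and 0 at an unadjusted p of 0.05 in limma. None of the 13 genes of mitochondrial DNA was found by the symbol searched, so they were not analysed here. They may be present under other symbols.

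**Figure D5:**
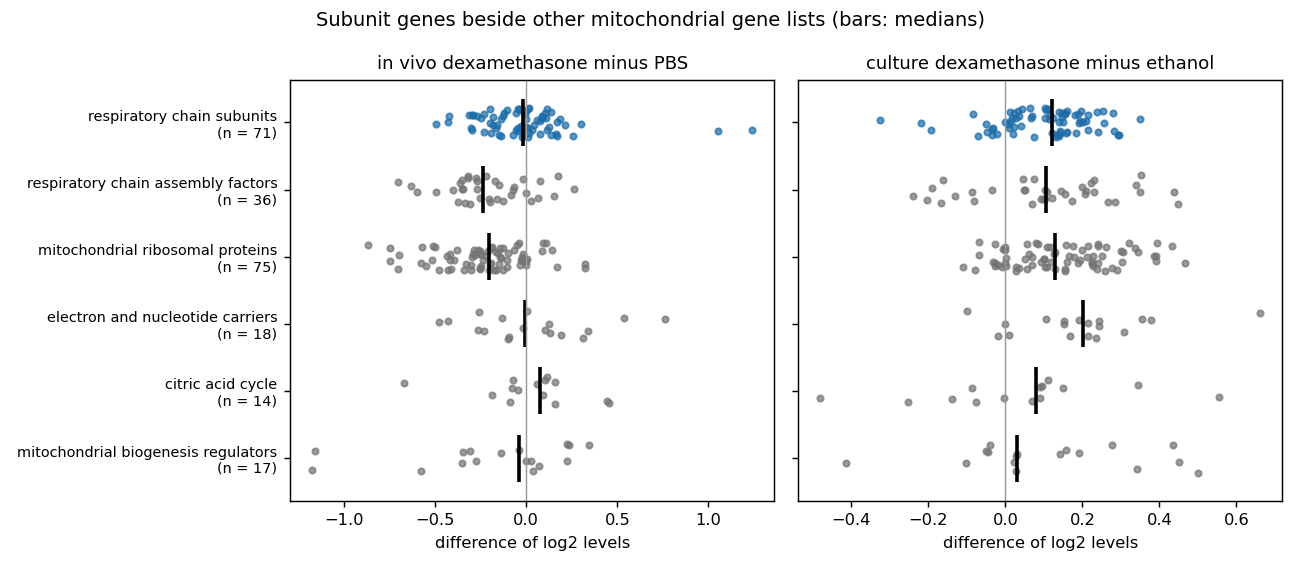
Difference of log2 levels (horizontal axis) of kept genes in 6 lists (rows, with the number of genes), for dexamethasone in vivo on the left and in culture on the right. Each point is 1 gene and bars are medians; in vivo, the bars of assembly factors and ribosomal proteins lie left of the bar of the subunit genes, and in culture all bars lie right of 0.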

How the data were processed

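RNA from 5 pooled thymic suspensions was measured on Affymetrix arrays. The deposited matrix held linear intensity values, and the deposited expression table held the same data as log2 values that the authors made; per the submitters' processing notes the tool was RMA, whose version and settings were not given in the sources used here. Both forms differed by at most 7.11e-15. Probe sets without a symbol numbered 5521 and stayed out. Differences of log2 levels were taken between pairs of arrays, with no test for 1 array per group. The authors' deposited log2 differences were matched to within 1.78e-15. The shared difference came from limma 3.58.1 (R 4.3.3), with eBayes and a mean-variance trend, after a test on simulated data. In that test, 86 of 100 genes given a difference of size 1 were called, and 100 of 100 given size 2. Of the 9986 genes given no difference, 43 were also called, so genes called by this fit can include false calls. Tables were handled with pandas 2.3.3 in Python 3.11.15. Names of list genes and upstream windows came from RefSeq tables of GRCm38.p6.

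Genes named in the text were the 5 highest and 5 lowest subunit genes of each comparison, those at least 2-fold different, a set of core subunits and the paralogous isoforms; others named, of other lists or by single values, were chosen after their values were seen. A gene that this rule names is not reported here. The members, lists and tests were chosen with earlier results of these data known. The symbol rule leaves out subunits that the file names otherwise, such as Ndufa13 (Grim19). Alternatives covered the level filter, the choice of probe set, centring, the reference array and the limma model.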

Additional observations from a re-analysis of the deposited data

How the results depend on the processing

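No paired analysis was possible because each group had 1 array and no replicate number, and for the same reason no array could be left out. Over the alternatives run, 233 of 260 values of the comparisons moved by less than 0.1 (log2), or by less than 1.5 times for a count; the others follow. With the arrays centred on their median over kept genes, the members at least 1.2-fold higher and lower numbered 5 and 3 in vivo, 1 was higher in culture, and 13 were higher between PBS and untreated. With untreated as the reference, those higher and lower numbered 5 and 2 in vivo and 10 and 9 in culture. The culture median was then -0.025, and the medians of complexes I, IV and V were 0.037, -0.10 and -0.055. With the median of all probe sets, 2 were higher and 0 lower in culture, 4 were higher between PBS and untreated, and 2 had an in vivo response at least 1.2-fold above that in culture. Chosen after seeing the data, leaving out tissue isoforms gave 1 higher in vivo, 3 higher and 0 lower in culture, 1 lower between PBS and untreated, and 1 with an in vivo response at least 1.2-fold above that in culture. Members by updated symbols, also chosen after seeing the data, gave a complex III median of -0.053 in vivo. The share of all kept genes was not taken for the counts under these alternatives, so they have no background. Beside the 260 values, 1210 further ones were checked. Of these, 1098 stayed within the same limits, 106 moved by more and 6 reversed. The 106 are not all given here. The reversed values were, in vivo, Atp5s at 0.037, Ndufa7 at 0.16 and Uqcrc2 at -0.043 with untreated as the reference, Ndufa7 at 0.0075 without _x_at probe sets and Uqcrc2 at -0.0079 with the median of all probe sets. In culture, Cox7a1 was at -1.73 with untreated as the reference. The genes called by limma numbered 0 without the level filter (1347 at an unadjusted p of 0.05) and 0 without the setting term (329 at an unadjusted p of 0.05). They numbered 65 with the median of all probe sets, 156 after centring and 119 without the trend. Of the members, 0 were called under each of these and under a filter at the upper quartile of level, with at most 1 at an unadjusted p of 0.05. Why these values moved was not tested. Among 42 members with several probe sets above the filter, all probe sets had the same sign in 26 in vivo, 31 in culture, 29 for PBS minus untreated and 35 for ethanol culture minus untreated. No detection call was given, so signal over background is unknown, and the pools have no measured spread.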
